A study of Arabidopsis thaliana with 6 samples.

Results

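Genes of indole glucosinolate synthesis and of glucosinolate breakdown were described as a set of 34 loci, chosen by gene identifier from what the genes are known to do. Earlier results of these data were known when the set was chosen. They comprise 10 enzymes of core indole glucosinolate synthesis, 6 enzymes of indole ring modification, 3 MYB regulators, 2 transporters, 4 myrosinases and 9 specifier and associated proteins. Of the 34, 28 had values among the 21799 genes with values, and all 28 passed the filter on low values, 1 of them (*IGMT2*) through its wild-type replicates only. The other 6, *CYP81F2*, *IGMT1*, *MYB122*, *NSP2*, *NSP3* and *NSP4*, were not analysed here.

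Glucosinolates are sulfur-containing thioglucosides that Brassicaceae such as Arabidopsis store as a chemical defence. The indole glucosinolates are built from tryptophan, decorated on the indole ring, moved between tissues by dedicated importers and split on tissue damage by myrosinases, whose products are then steered toward isothiocyanates, nitriles or epithionitriles by specifier proteins. Glucosinolates and myrosinases are both abundant in Arabidopsis flowers.

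Transcript levels were measured by RNA sequencing in inflorescences up to flower stage 12, before fertilization. The 3 replicates of the *stk ces-4 bee1 bee3* quadruple mutant and the 3 of the wild type were each 1 g of tissue pooled from 5 plants, and all plants were of the Col-0 ecotype. The mutant carries alleles of the MADS-domain gene *STK* (*stk*) and of the bHLH genes *CES* (*ces-4*, an insertion line), *BEE1* (*bee1*) and *BEE3* (*bee3*), combined by crossing. The comparison asks which transcripts differ when these transcription factors, which act in development of the septum and transmitting tract, are mutated together. Whole inflorescences were used, so fewer cells of a type and less RNA per cell cannot be told apart.

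The 6 libraries held between 15.9 and 21.2 M reads on the listed genes, so 3 reads corresponded to 0.137 to 0.185 CPM (counts per 1 M reads), which covers counting error only. The 4 mutated genes fell in the mutant, *STK* to 19.9%, *CES* to 4.86%, *BEE1* to 25.2% and *BEE3* to 3.54% of the wild-type mean. All 7 floral markers, *AP3*, *PI* and *AG* among them, were present in every library, and limma called none of the 7 (1 at an unadjusted p under 0.05). On the first principal component (44.3% of variance) wild-type replicate 2 lay farthest out, at 38.6, with wild-type replicates 1 and 3 at 10.1 and 9.11. Mutant replicates 1, 2 and 3 lay on the other side, at -18.5, -31.0 and -8.34. A gene was called when limma, fitted on log2(CPM + 0.5) over 21287 tested genes, gave a Benjamini-Hochberg adjusted p under 0.05. That fit called 148 genes, or 0.695%, of which 28 were higher (0.132%) and 120 lower (0.564%) in the mutant.

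Of the 28 genes tested here, 1 rose (*ESP*) and 1 fell (*CYP81F3*) in the mutant, and 26 were not called. At an unadjusted p under 0.05 there were 10, against 9.31% of all tested genes. The replicates of the genotypes did not overlap for 10 genes, 7 of them higher and 3 lower in the mutant, and for 14.3% of all tested genes (6.92% higher and 7.41% lower). Both counts of 10 include *IGMT2*, which passed the filter through its wild-type replicates only, so its non-overlap was a condition of its being tested. The median log2 fold change of the 28 was 0.04, against 0.01 over all tested genes. Added together, the 28 genes gave 6876, 6871 and 7038 CPM in the mutant replicates and 6892, 8019 and 5815 CPM in the wild-type replicates. The mutant sums therefore lay inside the wild-type range, and the wild-type replicates spread more widely.

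**Figure D1:**
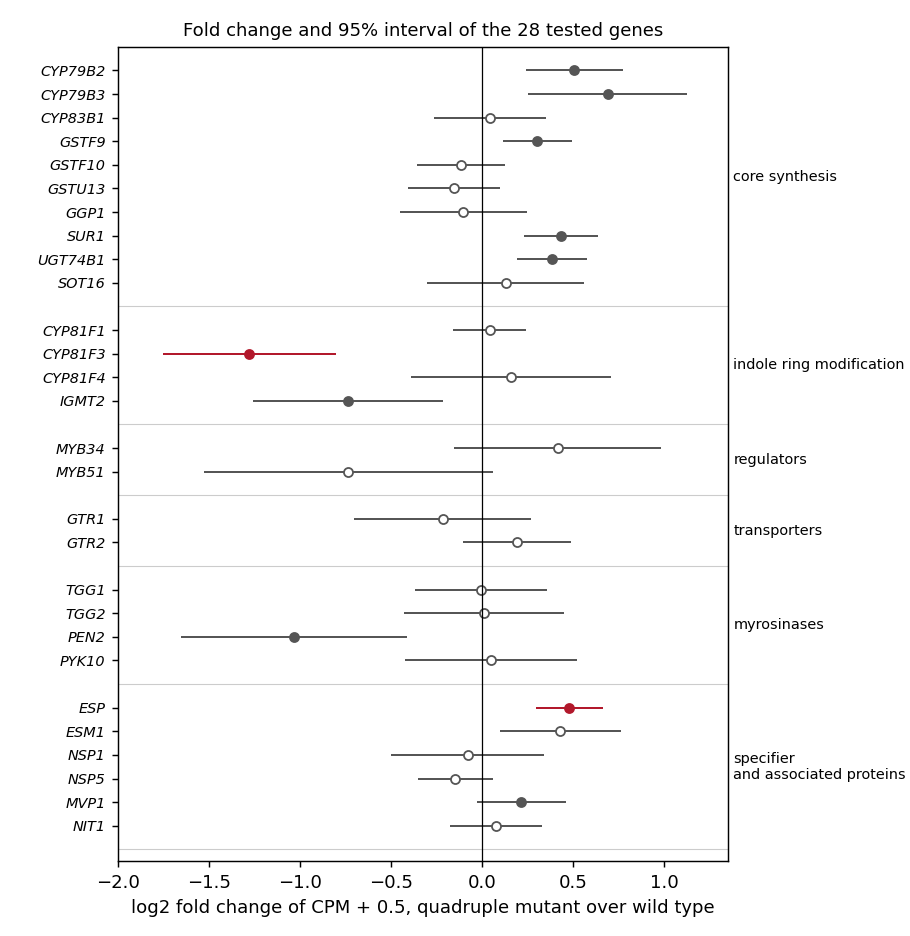
Log2 fold change of CPM + 0.5, quadruple mutant over wild type, for each of the 28 tested genes by role, with bars giving the 95% interval of the limma fit. Red points are the called genes, filled points are genes whose genotypes did not overlap, and open points are genes whose genotypes overlapped. *ESP* at 0.48 and *CYP81F3* at -1.28 are the 2 red points.

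Core synthesis starts with *CYP79B2* (*AT4G39950*) and *CYP79B3* (*AT2G22330*), cytochromes P450 that convert tryptophan to indole-3-acetaldoxime. *CYP79B2* had 15.9, 14.8 and 18.0 CPM in the mutant replicates and 10.9, 12.2 and 10.7 CPM in the wild-type replicates. *CYP79B3* had 18.4, 13.4 and 24.9 CPM in the mutant replicates, against 10.8, 11.6 and 11.2 CPM in the wild type. Every mutant replicate was above every wild-type replicate for both genes, and the mutant replicates of *CYP79B3* were the more scattered. Summed over the pair the level was 35.1 ± 7.40 CPM in the mutant and 22.4 ± 1.18 CPM in the wild type (SD, n = 3 each). The log2 fold changes were 0.51 (SE 0.12) for *CYP79B2* and 0.69 (SE 0.19) for *CYP79B3*, and neither was called (limma, Benjamini-Hochberg adjusted p = 0.139 and 0.233).

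*CYP83B1*, which oxidises the aldoxime and commits it to the pathway, was not called. It had 50.9, 51.5 and 62.6 CPM in the mutant replicates and 53.4, 63.0 and 44.8 CPM in the wild-type replicates, with the groups overlapping and a log2 fold change of 0.04 (95% interval -0.26 to 0.34). Next in the pathway are the glutathione S-transferases, of which *GSTF9* was the most abundant core gene per length at 233 CPM per kb of exon in the mutant and 189 CPM per kb in the wild type. *GSTF9* had 282, 284 and 295 CPM in the mutant replicates and 236, 221 and 242 CPM in the wild-type replicates. These values did not overlap and gave a difference of 0.30 (log2, SE 0.08), which was not called (adjusted p = 0.211 by limma). *GSTF10* and *GSTU13*, the other transferases, and *GGP1*, the gamma-glutamyl peptidase that trims the conjugate, overlapped between genotypes, with log2 fold changes of -0.12, -0.15 and -0.10.

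The 2 steps after the peptidase are the C-S lyase *SUR1* (*AT2G20610*), which releases the thiol, and the glucosyltransferase *UGT74B1* (*AT1G24100*), which adds the sugar. *SUR1* had 50.0, 55.8 and 48.7 CPM in the mutant replicates, against 38.7, 39.3 and 36.1 CPM in the wild type. *UGT74B1* had 47.9, 45.0 and 45.3 CPM in the mutant replicates, against 37.2, 33.3 and 35.3 CPM in the wild type. For both, the lowest mutant value stood clear of the highest wild-type value. The log2 fold changes were 0.43 (SE 0.09) for *SUR1* and 0.38 (SE 0.08) for *UGT74B1*, short of the threshold in the limma fit (adjusted p = 0.0867 and 0.114). *SOT16*, the sulfotransferase of the last step, had 51.3, 53.3 and 61.0 CPM in the mutant and 48.4, 69.7 and 37.7 CPM in the wild type, whose replicate 2 was the highest and replicate 3 the lowest of all 6.

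Across the 10 core genes limma called none, with 5 at an unadjusted p under 0.05. The same 5, *CYP79B2*, *CYP79B3*, *GSTF9*, *SUR1* and *UGT74B1*, were higher in every mutant replicate than in any wild-type replicate, a pattern that 6.92% of all tested genes showed. Their folds of the means ran from 1.23 (*GSTF9*) to 1.69 (*CYP79B3*), and the list median was 0.22 on the log2 scale. No processing alternative brought any of the 5 past the threshold.

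**Figure D2:**
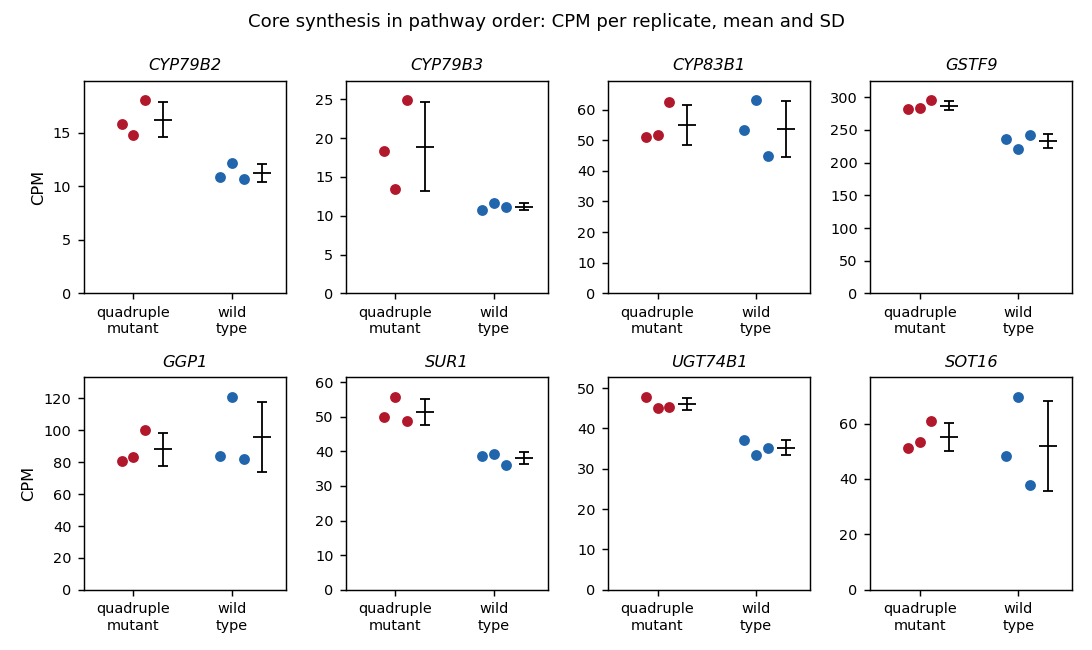
CPM in each replicate of 8 core synthesis genes, in pathway order, for the quadruple mutant (red, left) and wild type (blue, right), with the mean and SD beside the points (n = 3 each). *CYP79B2*, *CYP79B3*, *GSTF9*, *SUR1* and *UGT74B1* show separated groups, whereas *CYP83B1*, *GGP1* and *SOT16* overlap.

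The sequence upstream of *SUR1* is shown because it held the only G-box, CACGTG, found among the 34 genes. It is the 300 bases before the annotated start, on the minus strand of TAIR10.1 (RefSeq annotation) at chr2:8880441-8880740, with the G-box and the W-box cores (TTGAC, on either strand) in capitals.
SUR1: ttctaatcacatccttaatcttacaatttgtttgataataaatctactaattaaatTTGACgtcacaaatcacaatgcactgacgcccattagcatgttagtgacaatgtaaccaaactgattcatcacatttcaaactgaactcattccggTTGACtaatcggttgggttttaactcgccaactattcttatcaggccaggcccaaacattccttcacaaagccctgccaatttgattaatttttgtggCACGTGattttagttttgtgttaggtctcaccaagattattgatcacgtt
The G-box lay 50 bases upstream of the start. A G-box was found in 1 of 34 windows (2.94%) and in 8.0% of 21100 windows of the same length upstream of tested genes. The W-box core was in 17 of the 34 windows, or 50%, against 49.7% of all windows, and the CArG box in 0 of 34, against 3.13%. The motifs were searched on both strands, and a match describes letters in the window, not a bound site.

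The second group modifies the indole ring. *CYP81F1*, *CYP81F3* and *CYP81F4* are neighbouring cytochromes P450 that hydroxylate the ring, and IGMT methyltransferases then methylate the new hydroxyl group. *CYP81F3* (*AT4G37400*, TAIR10.1 chr4:17583992-17586442, plus strand) had 0.825, 0.575 and 0.453 CPM in the mutant replicates and 2.07, 1.91 and 2.64 CPM in the wild-type replicates. The highest mutant value was below the lowest wild-type value by more than the SD of either group, at means of 0.618 ± 0.190 CPM in the mutant and 2.21 ± 0.382 CPM in the wild type (SD, n = 3 each). *CYP81F3* thus fell to 28.0% of the wild-type mean, with a log2 fold change of -1.28 ± 0.21 (estimate ± SE, 95% interval -1.75 to -0.81, limma adjusted p = 0.0311).

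This gene was close to the lower end of what these libraries resolve, its values corresponding to about 18, 10 and 9 reads in the mutant and 45, 31 and 49 reads in the wild type. The call on *CYP81F3* held without wild-type replicate 2 (limma adjusted p = 0.0338). It was lost without any of the other libraries, at adjusted p = 0.0669, 0.135 and 0.0954 without mutant replicates 1, 2 and 3, and 0.121 and 0.129 without wild-type replicates 1 and 3. Its log2 fold change stayed between -1.41 and -1.17 throughout.

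The adjacent family members were not called. *CYP81F1*, far more abundant at 29.4 CPM per kb of exon in the mutant and 28.7 in the wild type, had 52.4, 51.6 and 51.7 CPM in the mutant replicates and 54.2, 46.1 and 51.4 CPM in the wild-type replicates. *CYP81F4*, which hydroxylates the ring nitrogen, had 6.13, 8.30 and 5.12 CPM in the mutant and 6.35, 3.87 and 7.40 CPM in the wild type. Both overlapped, with log2 fold changes of 0.04 (95% interval -0.15 to 0.23) and 0.16 (95% interval -0.39 to 0.70). *CYP81F3* therefore made up 1.39, 0.951 and 0.791% of the summed CPM of the 3 genes in the mutant replicates, against 3.31, 3.69 and 4.29% in the wild type. Coding sequences of *CYP81F3* and *CYP81F4* are 81.7% identical in the RefSeq annotation, with a longest shared run of 35 bases. The values of *CYP81F3* corresponded to whole reads in every library, whereas those of *CYP81F1* and *CYP81F4* did not in any. How reads of *CYP81F1* and *CYP81F4* were divided was not tested, which limits these percentages. On its other side *CYP81F3* neighbours *BRU6*, an auxin-responsive gene, whose log2 fold change was -0.82 ± 0.20 (estimate ± SE, limma adjusted p = 0.152).

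The 300 bases upstream of *CYP81F3*, the member with the largest fold change, are given from TAIR10.1 chr4:17583692-17583991 on the plus strand. No G-box, W-box core or CArG box was found in them, so no letters are in capitals.
CYP81F3: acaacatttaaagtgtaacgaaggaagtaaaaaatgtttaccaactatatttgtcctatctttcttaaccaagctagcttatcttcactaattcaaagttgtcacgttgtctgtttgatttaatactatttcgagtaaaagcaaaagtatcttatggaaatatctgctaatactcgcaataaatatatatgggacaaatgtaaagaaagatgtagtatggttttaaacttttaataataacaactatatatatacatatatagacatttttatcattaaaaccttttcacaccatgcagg

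Of the methyltransferases, *IGMT2* (*AT1G21120*) had 0.229, 0.230 and 0.403 CPM in the mutant replicates and 0.598, 1.05 and 0.807 CPM in the wild-type replicates. The groups did not overlap, but the gene passed the filter only through its wild-type values and its log2 difference of -0.74 (SE 0.23) missed the threshold (limma adjusted p = 0.297). Its near copy *IGMT4* (*AT1G21130*, TAIR10.1 chr1:7398814-7400736), which is no member of the 34 and lies beside it, had 1.70, 1.78 and 2.57 CPM in the mutant replicates and 6.39, 8.20 and 6.14 CPM in the wild-type replicates. Mutant values of *IGMT4* were all far under the wild-type values, and the gene fell with a log2 fold change of -1.56 ± 0.19 (estimate ± SE, limma adjusted p = 0.0049), a call kept without each of the 6 libraries (highest adjusted p = 0.0382). The coding sequences of *IGMT2* and *IGMT4* are 92.5% identical and those of *IGMT2* and *IGMT3*, which was not analysed here, 97.4%. RSEM can divide reads shared between such copies. The values of *IGMT2* and *IGMT4* corresponded to whole reads in every library, so no division was seen in them. How shared reads were placed among the copies was not tested, so the levels of the single *IGMT* genes remain uncertain. *IGMT5*, a more distant relative, had a log2 fold change of 0.44 ± 0.19 (estimate ± SE, limma adjusted p = 0.516).

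**Figure D3:**
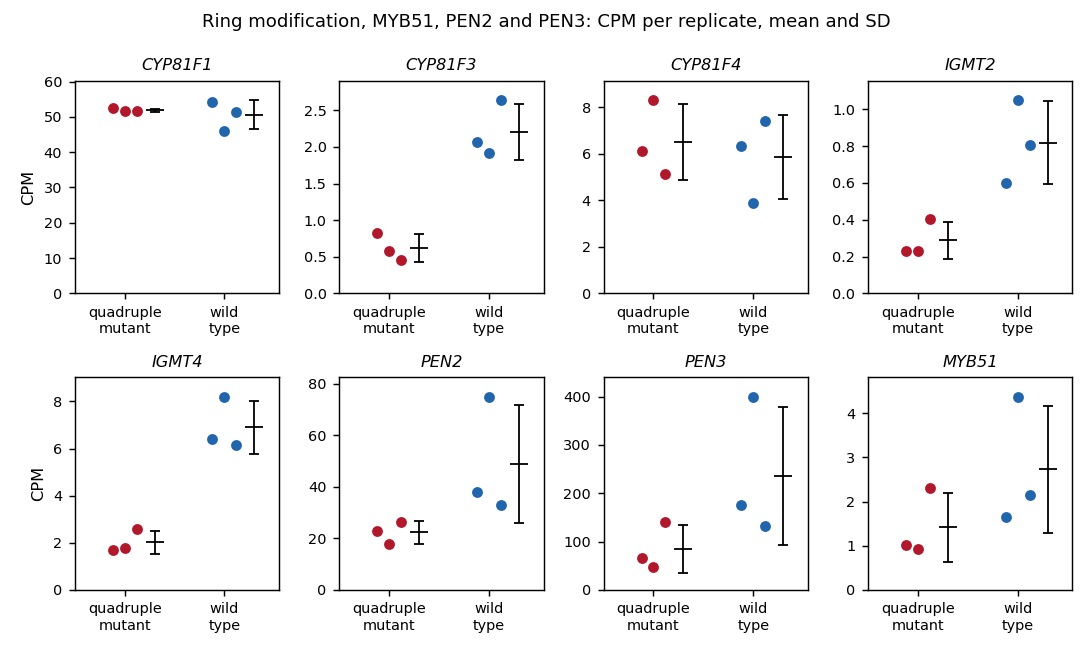
CPM in each replicate of the ring modification genes, *IGMT4*, *PEN2*, *PEN3* and *MYB51* in the quadruple mutant (red, left) and wild type (blue, right), with the mean and SD (n = 3 each). Mutant values of *CYP81F3*, *IGMT2*, *IGMT4* and *PEN2* lie below all wild-type values, and wild-type replicate 2, the middle blue point, is the highest for *IGMT2*, *IGMT4*, *PEN2*, *PEN3* and *MYB51*.

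The MYB regulators activate the synthesis genes. *MYB34* (*AT5G60890*) had 5.36, 6.15 and 6.60 CPM in the mutant replicates, against 5.34, 2.65 and 5.87 CPM in the wild type. *MYB51* (*AT1G18570*) had 1.01, 0.920 and 2.32 CPM in the mutant replicates, against 1.66, 4.38 and 2.15 CPM in the wild type. Both overlapped between genotypes, and in both it was wild-type replicate 2 that stood apart, as the lowest for *MYB34* and the highest for *MYB51*. On the log2 scale *MYB34* differed by 0.41 (SE 0.25) and *MYB51* by -0.74 (SE 0.35), with adjusted p = 0.691 and 0.579 in the limma fit, and without wild-type replicate 2 they were 0.10 and -0.39. *MYB51* lies 55.5 kb from *BEE1*, and *SOT16* 103 kb from *BEE3*. Within 250 kb of the 4 mutated genes, other than these genes themselves, 1 of 411 tested genes was called (0.243%).

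Both transporters, *GTR1* and *GTR2*, import glucosinolates across the plasma membrane. *GTR2*, with 55.9 CPM per kb of exon in the mutant and 49.2 in the wild type, had 120, 133 and 146 CPM in the mutant replicates and 139, 98.8 and 114 CPM in the wild-type replicates. The genotypes overlapped for *GTR2* and for *GTR1*, with log2 fold changes of 0.19 (95% interval -0.10 to 0.48) and -0.22 (95% interval -0.70 to 0.26).

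Myrosinases dominated the set, *TGG2* at 1554 and *TGG1* at 1010 CPM per kb of exon in the mutant and at 1572 and 1024 CPM per kb in the wild type, when no other member was above 259 CPM per kb in either. *TGG1* and *TGG2*, the classical myrosinases of guard cells and phloem-associated idioblasts, held 71.6 ± 0.946% of the summed CPM of the 28 genes in the mutant and 72.4 ± 3.28% in the wild type (SD, n = 3 each). *TGG2* had 3106, 3042 and 3019 CPM in the mutant replicates and 3071, 3791 and 2410 CPM in the wild-type replicates. *TGG1* had 1894, 1831 and 1997 CPM in the mutant replicates and 1911, 2282 and 1612 CPM in the wild-type replicates. For both genes the mutant values fell between the extremes set by wild-type replicates 2 and 3. The log2 fold changes were 0.01 (95% interval -0.43 to 0.44) for *TGG2* and -0.01 (95% interval -0.36 to 0.35) for *TGG1*. The ratio of *TGG2* to *TGG1* was 1.60 ± 0.0811 in the mutant and 1.59 ± 0.0852 in the wild type (SD, n = 3 each).

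The 6 guard cell markers examined summed to 40.4 to 59.3 CPM over the mutant replicates and 39.3 to 49.1 CPM over the wild-type replicates, with none called by limma (1 at an unadjusted p under 0.05) and none at 0. The 4 phloem markers summed to 227 to 278 CPM in the mutant and 178 to 258 CPM in the wild type, again with none called (0 at an unadjusted p under 0.05).

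*PEN2* (*AT2G44490*), an atypical myrosinase that hydrolyses indole glucosinolates in defence against pathogens, had 22.9, 17.7 and 26.3 CPM in the mutant replicates and 38.2, 75.0 and 33.0 CPM in the wild-type replicates. Mutant values were all below the wild-type values, among which replicate 2 was above the sum of the other pair. The mean was 22.3 ± 4.37 CPM in the mutant and 48.7 ± 22.9 CPM in the wild type (SD, n = 3 each), and the log2 difference of -1.03 (SE 0.27) missed the threshold (limma adjusted p = 0.204). Without wild-type replicate 2 it was -0.68 (adjusted p = 0.113). *PEN3*, the ABC transporter that exports products made by *PEN2* and which was picked out after its values were seen, had 66.0, 46.2 and 141 CPM in the mutant and 176, 400 and 133 CPM in the wild type. The groups of *PEN3* overlapped in mutant replicate 3 and wild-type replicate 3 (log2 fold change -1.48 ± 0.45 SE, limma adjusted p = 0.279).

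Of 7 salicylic acid and pathogen response genes, 5 were tested, and limma called 1 of them, *PR5*, against 0.564% of all tested genes called lower. At an unadjusted p under 0.05 there were 3 of the 5, against 9.31% of all tested genes. For 4 of the 5, *PR2* among them, every mutant replicate was below every wild-type replicate, against 7.41% of all tested genes. All 5 log2 fold changes were negative, with a median of -0.68. Of the 5, *PR2* passed the filter on low values through its wild-type replicates only, so being lower in the mutant was a condition of its being tested. It had 0.367, 0.115 and 0.252 CPM in the mutant replicates and 0.920, 2.03 and 0.969 CPM in the wild-type replicates. *NPR1* was at -0.47 and *ICS1* at -0.24 on the log2 scale, neither called. The summed level of the list, all 7 included, was 40.7 to 68.2 CPM in the mutant replicates and 60.2 to 177 CPM in the wild-type replicates, of which replicate 2 was the highest, and *PR1*, not tested, was at 0 in mutant replicate 2 and averaged 0.174 CPM in the mutant and 0.141 CPM in the wild type. The pathogenesis-related gene *PR5* fell, with 2.25, 1.32 and 1.96 CPM in the mutant and 6.12, 6.54 and 4.84 CPM in the wild type (log2 fold change -1.44 ± 0.20 SE, limma adjusted p = 0.0118, and 0.0825 without wild-type replicate 1). *WRKY33*, a regulator of pathogen responses and the largest part of the list's sum in every library, had 32.7, 22.1 and 44.6 CPM in the mutant and 31.7, 135 and 31.3 CPM in the wild type. Its log2 fold change of -0.68 turned to 0.02 without wild-type replicate 2. The part of these genes in the *PEN2*, *MYB51* and *CYP81F3* values was not tested.

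*PYK10*, the beta-glucosidase of root endoplasmic reticulum bodies, was near the lower limit, with 0.962, 0.690 and 0.906 CPM in the mutant and 0.736, 0.678 and 1.02 CPM in the wild type. Across the 4 myrosinases limma called none, with 1 (*PEN2*) at an unadjusted p under 0.05.

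The last group acts on the products of hydrolysis. *ESP* (*AT1G54040*, TAIR10.1 chr1:20170715-20173949, minus strand) encodes the epithiospecifier protein, which diverts hydrolysis from isothiocyanates to epithionitriles and nitriles. Only the transcript was measured here, not the protein, its activity or the hydrolysis products. *ESP* had 44.2, 43.7 and 45.1 CPM in the mutant replicates and 31.0, 33.0 and 31.1 CPM in the wild-type replicates. The replicates of each genotype were tightly grouped, and the groups were far apart relative to their spread, at 44.3 ± 0.709 CPM in the mutant and 31.7 ± 1.13 CPM in the wild type (SD, n = 3 each). *ESP* rose 1.40-fold, with a log2 fold change of 0.48 ± 0.08 (estimate ± SE, 95% interval 0.30 to 0.66, limma adjusted p = 0.0326).

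As for *CYP81F3*, the call on *ESP* was close to the threshold. It held without wild-type replicate 2 (limma adjusted p = 0.0356) and was lost without any of the others, at adjusted p = 0.165, 0.137 and 0.103 without mutant replicates 1, 2 and 3, and 0.152 and 0.108 without wild-type replicates 1 and 3. Its log2 fold change ranged only from 0.46 to 0.51, and the adjusted p was 0.0779 when limma was fitted without the mean-variance trend. Jasmonate and wounding genes, 7 tested with none called by limma (2 at an unadjusted p under 0.05, against 9.31% of all tested genes), had a median log2 fold change of 0.26, and *VSP1*, *VSP2* and *LOX2* were higher in every mutant replicate than in any wild-type replicate, as were 6.92% of all tested genes. The genotypes overlapped for *AOS*, *JAZ1*, *JAZ5* and *JAR1*, with log2 fold changes of 0.08, 0.09, 0.26 and -0.09. The list's summed level, mostly from *VSP1*, *VSP2* and *LOX2*, was 6272 to 6653 CPM in the mutant and 4468 to 5396 CPM in the wild type. The part of these genes in the *ESP* value was not tested.

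The 300 bases upstream of *ESP*, the member that rose, are given from TAIR10.1 chr1:20173950-20174249 on the minus strand, with the W-box cores in capitals (GTCAA is the core on the other strand).
ESP: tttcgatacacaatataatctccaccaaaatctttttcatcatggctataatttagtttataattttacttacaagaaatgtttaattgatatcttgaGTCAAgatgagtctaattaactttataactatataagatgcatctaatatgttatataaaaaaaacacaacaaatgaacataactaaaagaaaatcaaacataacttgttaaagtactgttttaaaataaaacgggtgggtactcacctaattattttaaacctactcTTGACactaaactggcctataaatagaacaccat
The window held 2 W-box cores and no G-box or CArG box.

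Nitrile specifier proteins also promote nitrile formation, and the ones with values were not called. *NSP5* had log2 fold change -0.15 (95% interval -0.35 to 0.05) and *NSP1* -0.08 (95% interval -0.49 to 0.33), both with overlapping groups. *ESP* therefore contributed 17.0, 15.5 and 16.0% of the summed CPM of *ESP*, *NSP1* and *NSP5* in the mutant replicates, against 11.0, 11.3 and 11.3% in the wild type. The coding sequences of *ESP* and *NSP1* are 67.4% identical with no shared run over 13 bases. Those of *NSP1* and *NSP3*, which was not analysed here, are 92.2% identical, with a longest shared run of 68 bases. The values of *NSP1* did not correspond to whole reads in any library. How shared reads were placed was not tested, so the *ESP* share rests on an uncertain *NSP1* level.

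*MVP1*, a GDSL-type protein that interacts with the TGG2 protein and adjoins *ESP* on the chromosome, had 50.4, 54.9 and 52.5 CPM in the mutant replicates and 48.7, 49.1 and 38.8 CPM in the wild-type replicates. The values did not overlap, by a margin smaller than the SD of either group, and the log2 difference of 0.21 (SE 0.11) missed the threshold (limma adjusted p = 0.596). The neighbour on the other side of *ESP*, *AT1G54050*, was at 0.27 (SE 0.14, adjusted p = 0.598). *ESM1*, the epithiospecifier modifier, which favours isothiocyanates over nitriles, had 41.8, 43.9 and 32.3 CPM in the mutant and 33.6, 24.5 and 29.1 CPM in the wild type. Mutant replicate 3 was below wild-type replicate 1, and the log2 fold change was 0.43 ± 0.15 (estimate ± SE, limma adjusted p = 0.352). *NIT1*, a nitrilase that acts on nitriles and the most abundant of this group per length at 259 CPM per kb of exon in the mutant and 245 in the wild type, had 492, 572 and 473 CPM in the mutant and 520, 445 and 491 CPM in the wild type. *NIT1* overlapped, with a log2 fold change of 0.08 (95% interval -0.17 to 0.32).

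**Figure D4:**
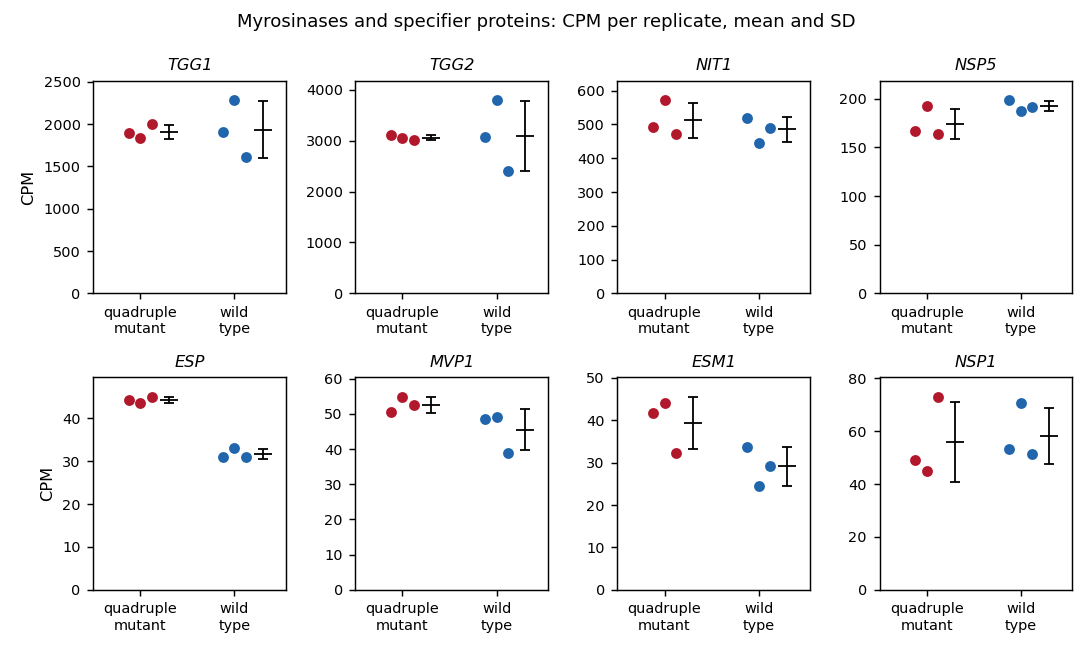
CPM in each replicate of *TGG1*, *TGG2* and 6 specifier and associated genes in the quadruple mutant (red, left) and wild type (blue, right), with the mean and SD (n = 3 each). The *ESP* groups are separated, at 43.7 to 45.1 CPM in the mutant and 31.0 to 33.0 CPM in the wild type, and the *TGG1* and *TGG2* groups overlap.

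Genes that feed or surround the pathway gave few calls. All 9 tested genes of tryptophan synthesis had positive log2 fold changes, but these were small, with a median of 0.13 and the largest at 0.27 for *PAT1*, and limma called none (1 at an unadjusted p under 0.05). Of 15 genes for sulfate assimilation, the sulfate donor PAPS and glutathione, limma called none (1 at an unadjusted p under 0.05), and the median was 0.05. *APK2*, an adenylylsulfate kinase that makes PAPS for the sulfotransferases, had 26.7, 23.5 and 29.1 CPM in the mutant replicates and 18.3, 19.7 and 17.3 CPM in the wild-type replicates. These did not overlap and the log2 fold change of 0.51 (SE 0.11) did not reach the threshold (limma adjusted p = 0.108).

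Among 7 other regulators, 7 genes of other transport and modification, 7 other myrosinase, nitrilase and ER body genes and 8 myrosinase-binding or jacalin-related genes, *IGMT4* was the only gene limma called. At an unadjusted p under 0.05 these lists had 1, 3, 2 and 3 genes. *MYC5*, a bHLH partner of the MYB regulators, was at 0.53 (SE 0.21, adjusted p = 0.473). It passed the filter on low values through its mutant replicates only, so being higher in the mutant was a condition of its being tested. *NIT2*, a close copy of *NIT1* with 91.4% identical coding sequence, was at -0.90 (SE 0.29, adjusted p = 0.320), and was called at -1.28 (adjusted p = 0.00671) without wild-type replicate 2. The jacalin-related list had a median of 0.27, and its myrosinase-binding proteins *MBP1* and *MBP2*, which form complexes with myrosinase, were at 0.39 (SE 0.11, adjusted p = 0.208) and 0.33 (SE 0.12, adjusted p = 0.385), with non-overlapping groups. *GLL23* had the largest value of that list, 0.52 (SE 0.24, adjusted p = 0.571). In camalexin synthesis, another branch from indole-3-acetaldoxime, 2 of 7 genes were tested and limma called neither (2 at an unadjusted p under 0.05). The tested genes went opposite ways. *GSTF6* had a log2 fold change of -1.28 ± 0.31 (estimate ± SE, limma adjusted p = 0.158) and *CYP71A13* of 0.62 ± 0.23 (limma adjusted p = 0.427).

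Aliphatic glucosinolates are built from methionine by a parallel set of enzymes. Of 8 tested genes of that core, 2 rose, against 0.132% of all tested genes, and all 8 were higher in every mutant replicate than in any wild-type replicate, against 6.92% of all tested genes. From these same samples the study had already reported glucosinolate synthesis as enriched among its upregulated genes. The counts of this list are therefore not independent of that result. The median of the 8 was 0.52 on the log2 scale. *CYP79F2*, a tandem copy of *CYP79F1* that did not pass the filter on low values, lay the other way, with 0.412, 0.173 and 0.302 CPM in the mutant and 0.460, 0.740 and 0.646 CPM in the wild type. Both genes corresponded to whole reads in every library, and how reads were placed between the pair was not tested. *MYB29*, a regulator of the list that was also not tested, averaged 0.800 CPM in the mutant and 0.177 CPM in the wild type. *CYP83A1*, the counterpart of *CYP83B1*, had 23.9, 32.0 and 18.6 CPM in the mutant and 11.3, 9.37 and 10.2 CPM in the wild type (log2 fold change 1.20 ± 0.18 SE, limma adjusted p = 0.0198). *CYP79F1*, the counterpart of *CYP79B2* and *CYP79B3*, had 1.65, 2.59 and 1.76 CPM in the mutant and 0.598, 0.493 and 0.700 CPM in the wild type (log2 fold change 1.17 ± 0.21 SE, adjusted p = 0.0472). The call on *CYP79F1* was lost without each of the 6 libraries in turn (adjusted p = 0.0797 to 0.226, log2 fold changes of 1.01 to 1.27). That on *CYP83A1* was lost without mutant replicate 1 (adjusted p = 0.111), wild-type replicate 1 (0.0725) and wild-type replicate 3 (0.0772). *SUR1* is shared by both pathways. The difference between the aliphatic and indole lists was not tested.

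**Figure D5:**
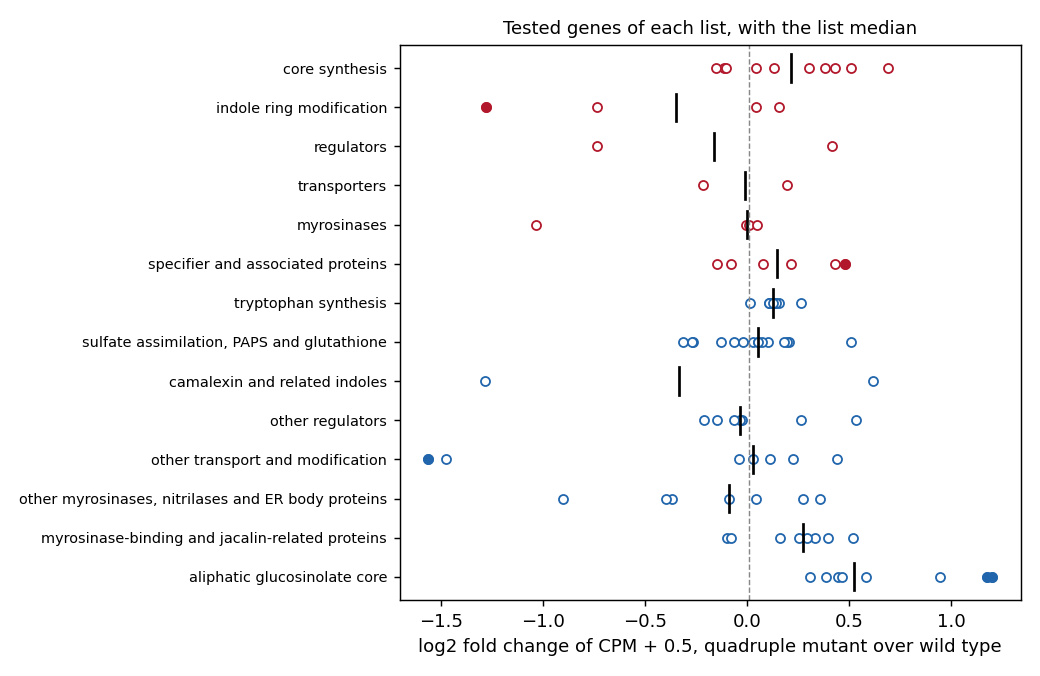
Log2 fold change of CPM + 0.5, quadruple mutant over wild type, of the tested genes of each list, with red circles for the 28 tested genes of the indole and breakdown set, blue circles for other lists, filled circles for called genes and black bars for list medians. The dashed line is the median of all tested genes, 0.01, the aliphatic core median is 0.52 and the indole core median 0.22.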

How the data were processed

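Total RNA of 6 inflorescence pools was sequenced from directional libraries. Per the study's methods and the labels' processing notes, the authors mapped reads to TAIR10 with Bowtie2 and estimated expression with RSEM. The deposited table gives CPM per gene and replicate, scaled by the authors and not logged, for 21801 rows, 2 of them without values. Low values were whole multiples of 1 read (tolerance 0.02 read) for only 92.5 to 93.4%, so no count test was run. Its other 3 columns, log2 ratios, p-values and false discovery rates, hold the authors' own edgeR comparison and were left unused.

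The genotypes were compared with limma 3.58.1 (R 4.3.3; lmFit, eBayes with trend, two-sided) on log2(CPM + 0.5), for 21287 genes over 0.5 CPM in at least 3 samples, with Benjamini-Hochberg adjustment over these genes. The fit was checked on simulated data, and it understates changes of low genes. With 3 replicates against 3, the p-values set the genotype difference against the spread between pools. The variance of each gene was moderated toward the trend over all tested genes. Fold changes are mutant over wild type. Positions, exon lengths and the sequences come from the RefSeq annotation of TAIR10.1 (same locus identifiers; coordinates of the authors' build were not used). Python 3.11.15 with pandas 2.3.3 and Biopython 1.88 computed the rest.

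The genes and lists were chosen with earlier results of these data known. Values in every sample are given for members that were called, did not overlap between genotypes, had the highest mean in their role or are MYB regulators. From other lists, called genes or otherwise the one with the largest change are named; further genes were chosen after their values were seen. The alternatives were other pseudocounts, filters and scalings, no trend, a replicate block and leaving out each replicate.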

Additional observations from a re-analysis of the deposited data

How the results depend on the processing

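Of 390 values of the 28 tested genes under 14 alternatives (pseudocounts of 0.1 and 1 CPM, no filter, a filter of 1 CPM, upper quartile and column total scaling, no trend, a replicate block and 6 fits without 1 replicate), 377 kept their side of the threshold, 13 lost the call on *ESP* or *CYP81F3* and 0 of the called values changed direction. Of the 377, 18 uncalled values changed sign. Neither call was kept in every alternative, and no other member was called in any. Genes called over the whole table were 148, and between 61 and 159 without 1 replicate. Genes of the set called higher were 1, or 0 without the trend and 0 to 1 without 1 replicate, and those called lower were 1, or 0 to 1 without 1 replicate. Samples with the same replicate number did not deviate together (correlations of -0.11, -0.16 and -0.10). Differently numbered samples had correlations from -0.16 to 0.25. With so few replicates these values cannot exclude that same-numbered samples were handled together. With the replicate block, limma called 64 genes, 0 of the set higher and 0 lower, with adjusted p = 0.173 for *ESP* and 0.132 for *CYP81F3*. The median of the ring modification genes, -0.35, was -0.60 with a pseudocount of 0.1 CPM, -0.23 with 1 CPM and 0.04 with the filter of 1 CPM, which leaves out *IGMT2*. Depth limits *CYP81F3*, *IGMT2* and *PYK10* most.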
